A study of Mus musculus with 6 samples.

Results

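The data describe the microRNA (miRNA) profile of the atherosclerotic mouse aorta in which the miRNA-processing enzyme Dicer is intact. Of the 6 aortas in the deposited table, the 3 labelled EC-DicerWT were used, and of its 608 rows the 596 assays of mouse miRNAs. These mice were females that lacked apolipoprotein E (Apoe-/-), carried both unmodified copies of Dicer1, and bore the VE-Cadherin-CreERT2 transgene, a tamoxifen-inducible Cre recombinase driven by an endothelial promoter. Tamoxifen was injected on 5 days at 2 mg per 20 g of body weight, and 1 week later, at an age of 6 to 8 weeks, a high-fat diet was started. It held 0.15% cholesterol, 19.5% casein and 21% crude fat and lasted 12 weeks. The labels call the 3 samples biological replicates, and they are named mouse 1, 2 and 3 here. The whole aorta was extracted, and the assays were TaqMan arrays read by quantitative real-time PCR. There was no aorta of a lean or Apoe-sufficient mouse in the table, so the profile is that of a diseased artery without a healthy counterpart, and lesion size and Dicer itself were not measured by these assays.

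A miRNA is cut stepwise from a longer transcript, first by Drosha in the nucleus and then by Dicer in the cytoplasm. The resulting duplex is loaded into an Argonaute protein, which usually keeps the guide strand and discards the passenger strand. The seed, bases 2 to 8 counted from the 5′ end, directs the complex to messenger RNAs, so miRNAs with the same seed share many targets. In the older naming used on the arrays, an asterisk marks the strand that was thought to be the passenger, whereas -5p and -3p name the arms of the hairpin without ranking them.

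The sequences below belong to abundant miRNAs, to cell type markers and to families with a shared seed, with the seed in capitals. They are mature sequences from RefSeq (GRCm38.p6). A mature sequence was matched for 342 of the 596 assays, and for 12 of the 20 most abundant. The first set holds miRNAs of the 20 lowest cycle thresholds.
miR-24: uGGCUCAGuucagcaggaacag
miR-30c: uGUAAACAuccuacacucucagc
miR-125b-5p: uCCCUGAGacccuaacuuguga
miR-26a: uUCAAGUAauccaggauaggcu
miR-126-3p: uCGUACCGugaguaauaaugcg
miR-193b: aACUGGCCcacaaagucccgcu
miR-29a: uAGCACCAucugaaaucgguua
miR-19b: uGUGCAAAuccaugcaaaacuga

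The endothelial miR-126-3p lies at chr2:26591402-26591423 on the plus strand, within the span of Egfl7, the gene of an endothelial matrix protein. Copies of miR-26a lie within Ctdspl (chr9:119031811-119031832, plus strand) and Ctdsp2 (chr10:126995543-126995564, plus strand). MiR-29a is at chr6:31062673-31062694 on the minus strand, outside the span of any annotated protein-coding or long noncoding gene. The annotation used gives gene spans only, so exons and introns were not separated.

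The second set holds miRNAs used as cell type markers, and is shown because they stand in the marker lists described below. Not all of them are limited to a single cell type.
miR-223: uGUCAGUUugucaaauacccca
miR-155: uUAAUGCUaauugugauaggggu
miR-451: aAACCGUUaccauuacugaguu
miR-199a-3p: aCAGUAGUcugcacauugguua
miR-205: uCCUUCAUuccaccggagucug

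The third set shows families that share a seed, so that members with the same seed can be set beside their Ct values. Some differed widely in Ct, as in the miR-99 seed, and others little, as with miR-106a and miR-17.
let-7c: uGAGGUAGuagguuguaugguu
let-7e: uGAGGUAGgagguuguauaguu
let-7b: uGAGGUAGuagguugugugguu
miR-98: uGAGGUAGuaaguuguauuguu
miR-106a: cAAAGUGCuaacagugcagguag
miR-17: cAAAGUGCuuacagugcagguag
miR-20b: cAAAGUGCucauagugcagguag
miR-99b: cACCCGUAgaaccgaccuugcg
miR-100: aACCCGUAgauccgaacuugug
miR-99a: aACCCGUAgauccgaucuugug

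The unit of all values is the cycle threshold (Ct), the PCR cycle at which the fluorescence of an assay passes a set level. A low Ct means much RNA, and 1 cycle is 1 unit on the log2 scale if each cycle makes a full copy of the product. Undetected assays are listed at a Ct of 40. Ranks between assays are approximate, because efficiency and preamplification can differ between assays, and neither was measured here. The order of the mice within the same assay does not carry that limit, but the size of a difference in log2 units assumes doubling per cycle. As a check of the samples, the plant assay was at 40 in all 6 wells, and 5 control small RNAs were detected on both array cards in every mouse. The mean Ct of the controls, used as the reference, was 19.6, 19.4 and 20.2 in mice 1, 2 and 3, so mouse 3 crossed the threshold later. Over the miRNAs detected in all 3 mice, its Ct lay 0.43 cycles above the assay mean at the median, against -0.22 cycles in each of the other mice. After the reference was subtracted, the medians were 0.06, -0.06 and 0.01 log2 units.

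Most of the assayed miRNAs were present in the aorta. There were 440, 454 and 421 assays under a Ct of 40 in mice 1, 2 and 3, or 438 ± 16.6 (SD, n = 3). All 3 mice detected 407 assays (68.3%), 30 were detected in 2 mice, 34 in 1 mouse, and 125 (21.0%) in none. The assays came on 2 cards, of which card A mainly holds well-known miRNAs and card B carries those named later and the starred strands. On card A 256 of 335 assays (76.4%) were detected in all mice, and on card B 151 of 261 (57.9%). On card B, the starred strands were detected in all mice in 44 of 64 assays (68.8%), and the assays without an asterisk in 107 of 197 (54.3%). Over both cards, assays without an asterisk were detected in all mice in 363 of 532 (68.2%), so the starred share was close to that of the other assays.

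Partial detection lay near the limit. Assays found in 1 mouse had a median Ct of 36.9 in that mouse, and those found in 2 mice had a median of 34.4. Mouse 3 was the missing mouse in 25 of the 30 assays found in 2 mice, mouse 1 in 5 and mouse 2 in 0. Mouse 2 held 17 of the 34 assays found once, mouse 1 held 8 and mouse 3 held 9. In only 5 partly detected assays did a mouse have a Ct under 30, which are named after their values were seen. They were miR-343, miR-326, miR-1935, miR-295 and miR-875-3p.

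The profile was steep. Mean Ct ran from 14.7 to 37.9 among the 407 assays, with a median of 26.9, so the first assay lay 12.2 cycles ahead of the median one. The signal, computed as 2 to the power of minus Ct and summed over all detected assays, was taken to 54.9%, 54.1% and 62.3% in mice 1, 2 and 3 by the 10 assays with the lowest mean Ct. The first 20 took 69.6%, 69.5% and 77.1%, and the first 50 took 83.0%, 84.4% and 90.9%. MiR-343 was listed at a Ct of exactly 15 in mouse 1, 15.6 in mouse 2 and 40 in mouse 3, which gave it 7.89% and 5.44% of the signal in mice 1 and 2. Whether these wells read the miRNA was not tested, and whether the whole-number Ct was a measured crossing is not given in the sources used here. Without miR-343 the share of the first 10 was 59.6%, 57.2% and 62.3%. Without miR-762 and miR-763 as well, which also lay far apart between the mice, it was 60.9%, 58.6% and 62.3%, with mouse 3 still the highest.

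**Figure D1:**
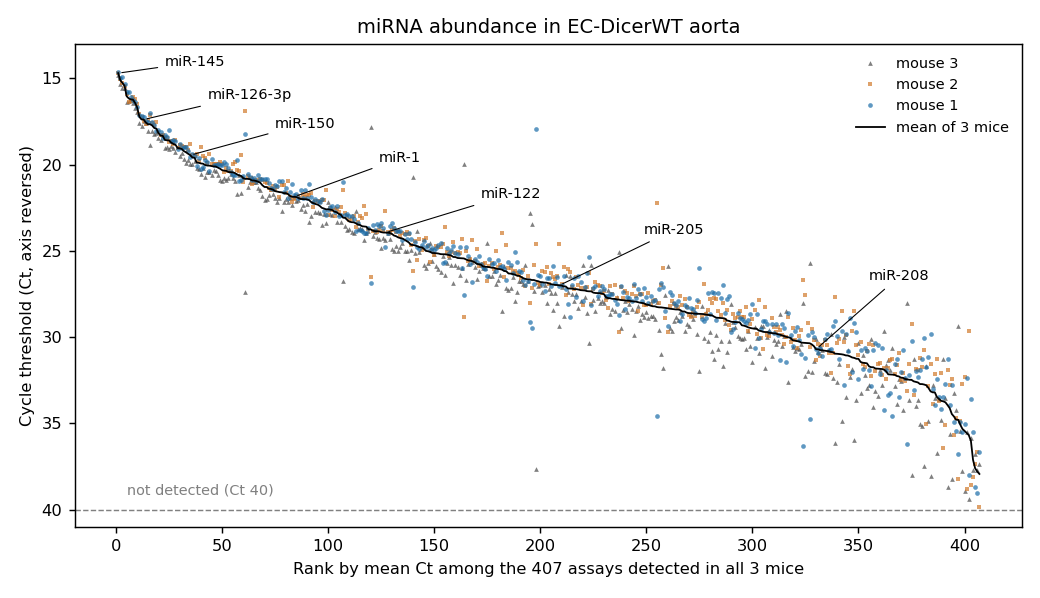
Ct of each of the 407 assays detected in all 3 mice (points, by mouse) against rank by mean Ct (line, mean of 3 mice), with the Ct axis reversed so that abundant miRNAs are at the top. The first 20 ranks lie between a mean Ct of 14.7 and 18.2, and the points spread apart towards high Ct.

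The smooth muscle miRNA miR-145 led the profile, and miR-143 was at rank 5. MiR-145, which drives the contractile state of smooth muscle cells, had the lowest Ct in every mouse, at 14.6, 14.7 and 14.8, and its share of the signal was 10.41%, 10.62% and 13.05%. MiR-143, its cluster partner, had a Ct of 15.8, 15.9 and 16.4 and ranked 6, 6 and 7. MiR-145 was therefore ahead of its partner in each mouse, although both arise from 1 transcript in textbook accounts.

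Widely expressed miRNAs with roles in growth and matrix filled most of the other leading ranks. MiR-24, which comes from the miR-23/24/27 clusters, had a Ct of 15.3, 15.4 and 15.5. MiR-140, best known from cartilage, followed at 16.1, 16.3 and 16.2. MiR-30b (16.2, 16.1 and 16.4) and miR-30c (16.4, 16.2 and 16.7) belong to a single family. The SD of Ct over the mice was between 0.12 and 0.24 cycles in these assays.
MiR-125b-5p, a relative of worm lin-4, had a Ct of 16.6, 16.5 and 17.0. MiR-26a had 17.1, 17.0 and 17.6, and let-7c, of the family that restrains proliferation, had 17.2, 17.2 and 17.7. The adipose-enriched miR-193b had 17.4, 17.6 and 17.6. MiR-26a ranked 13, 13 and 12 and let-7c 14, 15 and 14, whereas miR-193b ranked 16, 20 and 13.
Let-7e had a Ct of 17.5, 17.4 and 18.0, and miR-99b, from the same cluster, had 18.0, 18.1 and 18.5. MiR-29a, which represses collagens and elastin, had 17.5, 17.6 and 18.1. MiR-19b, of the miR-17-92 cluster, had 18.0, 17.5 and 18.1, with the lowest Ct in mouse 2. After the reference was subtracted it was highest in mouse 3, at 1.53, 1.92 and 2.02 log2 units in mice 1, 2 and 3.

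Endothelial miR-126-3p stood at rank 13. This miRNA sustains vascular endothelial growth factor signalling, and its Ct was 17.2, 17.5 and 17.4. It took 1.66%, 1.54% and 2.09% of the signal. Its mean Ct lay 0.01 cycles behind let-7c, and their order differed between the mice.

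Of the first 20 assays, 5 were on card B. MiR-2134 had a Ct of 15.0, 15.0 and 15.3, miR-1937b 14.9, 15.3 and 15.6, miR-1937c 15.8, 16.4 and 16.3, and miR-2138 17.7, 17.7 and 18.2. Their names did not match a miRNA gene in the RefSeq annotation, as was also the case for miR-720, miR-2146 and miR-1274a among the first 60. MiR-720, miR-1274a and the miR-1937 group are known to be fragments of transfer RNA that were later withdrawn as miRNAs. On card A alone, the first 10 assays took 62.3% of the signal on average. The remaining card B assay, miR-690, had a Ct of 17.0 and 17.1 in mice 1 and 2 and 18.8 in mouse 3, and its SD of 0.66 log2 units after reference subtraction was the highest of the first 20.

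The order of the first 20 by Ct was partly shared by the mice. Efficiency can differ between assays, so a shared order of Ct does not settle which miRNA was more abundant. Of the 19 neighbouring pairs in that order, 8 kept the same order in all 3 mice. MiR-145 lay ahead of miR-2134 by 0.41 ± 0.10 cycles, miR-24 ahead of miR-143 by 0.60 ± 0.19, and miR-125b-5p ahead of miR-26a by 0.54 ± 0.07 (SD, n = 3). MiR-30b preceded miR-30c, miR-30c preceded miR-125b-5p, miR-26a preceded let-7c, miR-126-3p preceded miR-193b, and miR-29a preceded miR-2138 in every mouse. The other 11 neighbours changed places in at least 1 mouse. These were miR-2134 with miR-1937b, miR-1937b with miR-24, miR-143 with miR-1937c, miR-1937c with miR-140, and miR-140 with miR-30b. Further down they were let-7c with miR-126-3p, miR-193b with let-7e, let-7e with miR-690, miR-690 with miR-29a, miR-2138 with miR-19b, and miR-19b with miR-99b. The mice shared 9 of their first 10 and 16 of their first 20 assays.

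MiRNAs used as markers of cell types were then described list by list. Several of them are also made by other cells, so a list does not by itself give the origin of the RNA. In bulk tissue, fewer cells of a type and less RNA per cell cannot be told apart. Of 99 assays in 16 lists, 59 were detected in all 3 mice (59.6%, against 68.3% of all assays), and 10 lists had every measured assay detected. These counts include a list of miRNAs named by the study, which is not a cell type list and had all 11 assays detected. MiR-144, miR-206 and miR-378 were among list members that were not matched to an assay here.

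Some vascular wall markers were near the top, with miR-145 at rank 1 and miR-126-3p at rank 13. Others lay lower, with miR-221 at rank 106 and miR-199b at rank 149. Both strands of the endothelial miR-126 hairpin were detected, with a median rank of 37.5 for the list against 204 for all detected assays. The fat-enriched list lay ahead of it, with a median rank of 21.5. MiR-126-5p, which supports endothelial proliferation, had a Ct of 20.6, 20.7 and 21.3, later than miR-126-3p in every mouse. The passenger miR-145* was barely detected at 38.7, 37.3 and 36.8. MiR-221 and miR-222, which are made by both endothelial and smooth muscle cells, had mean Ct values of 22.9 and 20.3. The mesenchymal miR-199a-3p had a Ct of 19.5, 19.5 and 19.8 and its neighbour miR-214 had 20.0, 20.2 and 20.9. Copies of both lie within the Dnm3os gene, and smooth muscle cells also make them. MiR-199b and miR-199a-5p followed at mean Ct values of 25.1 and 22.6.

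Leukocyte miRNAs were abundant. The pan-leukocyte miR-142-3p had a Ct of 20.3, 19.0 and 20.5, and lymphocyte miR-150 had 19.6, 18.8 and 20.0. The myeloid miR-223 was at 20.9, 20.9 and 21.4. Mouse 2 had the lowest Ct in the first of these assays by more than 1 cycle, and in miR-223 it was level with mouse 1.
MiR-146a, a brake on nuclear factor-kappaB signalling, was at 20.0, 20.0 and 20.3. MiR-155, which is induced in activated macrophages and lymphocytes, was later at 26.16, 24.99 and 26.93, and miR-142-5p had a mean Ct of 26.7. MiR-146b was not detected in any mouse. Together the list took 0.925%, 1.57% and 1.03% of the signal.

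Red cell and striated muscle miRNAs were also found. The erythroid miR-451, which matures through Argonaute2 instead of Dicer, had a Ct of 20.4, 19.4 and 20.4, and miR-486, shared by red cells and muscle, had 20.9, 20.3 and 20.6. MiR-133a, which smooth muscle expresses at a lower level than the heart, had 18.4, 18.4 and 19.0. MiR-1, of heart and skeletal muscle, had 21.73, 21.98 and 21.88.
The markers that define cardiac and slow muscle were far later. MiR-208, encoded in a cardiac myosin gene, was at 30.7, 31.3 and 30.1, miR-208b was not detected, and miR-499 was detected in mouse 2 alone, at 35.8. MiR-133b had a mean Ct of 21.5. The defining list is thus split, with miR-1 early and the myosin-encoded members late or absent.

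Markers of organs outside the vessel were low but often present. The hepatocyte miR-122 had a Ct of 24.8, 22.7 and 24.3. The epithelial miR-200a was at 25.6, 23.6 and 26.4, miR-200b at 25.9, 23.9 and 28.5, and miR-200c at 26.8, 24.3 and 25.7. MiR-205, of stratified epithelium, was at 27.0, 24.6 and 29.4. In each of these, mouse 2 held the lowest Ct.
MiR-141 and miR-429, of the same family, had mean Ct values of 29.5 and 25.4. The skin miR-203 was earlier and even, at 22.4, 22.6 and 22.9. The pancreatic islet miR-375 was at 28.8, 26.2 and 26.5, miR-216a was not detected, and the miR-217 assays stayed above a Ct of 36 or at the limit. The sensory cluster miR-182, miR-183 and miR-96 had mean Ct values of 24.8, 28.4 and 31.3.

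Neural markers ranged widely. MiR-9, of neural progenitors and neurons, had a Ct of 23.7, 23.9 and 24.2, whereas neuronal miR-124 was at 35.5, 32.7 and 37.7 and miR-137 had a mean Ct of 29.9. MiR-153 was not detected in any mouse. The whole list of 9 assays had 7 detected in all mice and took at most 0.034% of the signal. The fat-enriched miR-193b and miR-365 had ranks of 14 and 29, and both are also made outside fat.

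Lists of early embryonic and germ line miRNAs were mostly not detected. Of 16 assays of the miR-290 and miR-302 clusters, which mark embryonic stem cells, 2 were detected in all mice and 9 in none. The 2 were miR-292-5p (36.3, 26.7 and 28) and miR-302a (33.4, 36.4 and 31.3), both far apart between the mice. MiR-291-5p, another product of the miR-290 cluster under an older name that the list did not hold, was also detected in all mice, at 34.6, 22.2 and 27.9. Of 21 assays of the X-linked male germ line group, 4 were detected in all of these females and 14 in none. The 4 were miR-878-3p, miR-465a-3p, miR-465C-5P and miR-741, with mean Ct values of 28.6, 32.4, 30.8 and 33.5. The list did not hold the starred strands of its hairpins. Of these, miR-470*, miR-881* and miR-463* were detected in all mice and miR-742* in none.

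**Figure D2:**
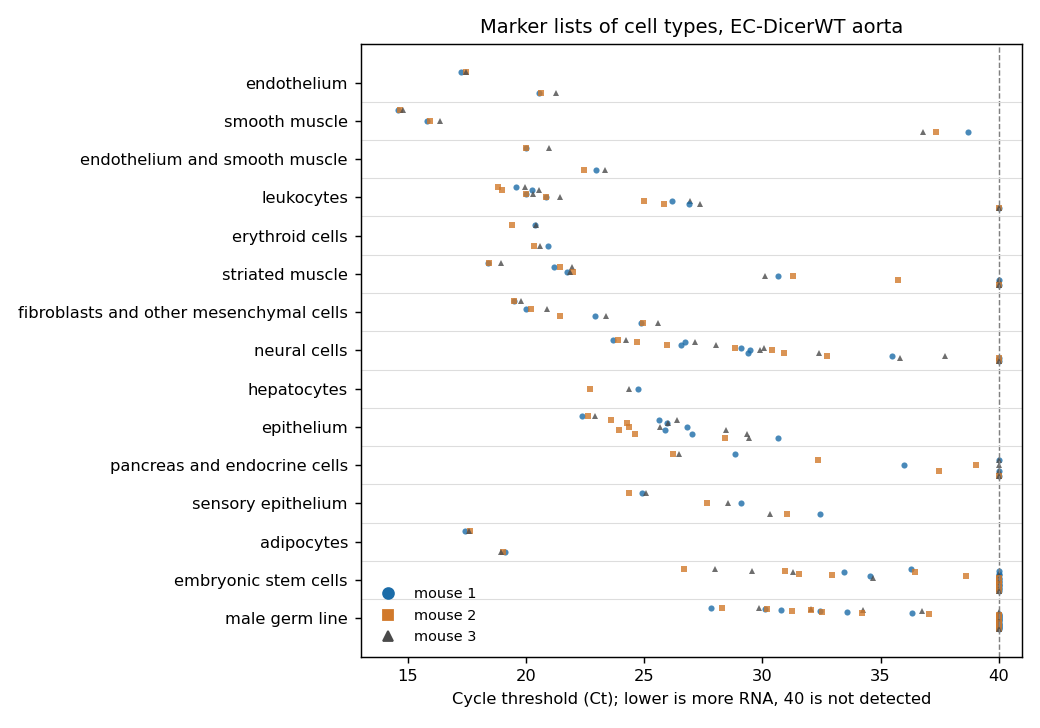
Ct of every assay in 15 marker lists, with a point for each mouse and members of a list set apart vertically, on an axis where 40 means not detected. MiR-145 and miR-143 of smooth muscle lie furthest left, followed by miR-126-3p and the fat-enriched miR-193b, leukocyte and red cell markers begin at about 19, and most germ line and stem cell assays sit at 40.

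A further list held 12 of the miRNAs that the study names in connection with arterial endothelium or plaque. It is a selection, and some of its members were picked by the study on these samples, so their level is not independent evidence. All 11 with an assay here were detected in every mouse, with mean Ct values from 20.1 to 26.6. MiR-103, studied for endothelial inflammation, had a Ct of 21.7, 21.8 and 22.1 and ranked 85, and its paralogue miR-107 was later at 25.8, 25.5 and 25.5. MiR-652 was at 20.83, 21.07 and 21.99, miR-301b at 21.35, 21.62 and 21.98, and miR-433 at 26.8, 26.5 and 26.7. The flow-regulated miR-92a had a mean Ct of 20.4, miR-10a 22.2, miR-19a 23.6 and miR-712 25.2. The earliest of the list was miR-146a at rank 46.

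The spread between mice grew as abundance fell. For this, the level was taken as the reference Ct minus the Ct, in log2 units. The median SD of the level over the 3 mice was 0.45 for the 407 assays. It was 0.22 for the 41 assays with a mean Ct under 20, 0.28 for the 105 between 20 and 25, 0.52 for the 170 between 25 and 30, and 1.23 for the 91 at 30 or more. An SD over 1 log2 unit occurred in 0 of the 41 most abundant and in 56 of the 91 least abundant assays (61.5%). Between a Ct of 25 and 30 the medians of cards A and B were 0.46 and 0.56. Each assay had a single Ct per mouse, so differences between animals and measurement noise cannot be told apart in these SDs.

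By the SD of the level, the steadiest assays were miR-148b, miR-497, miR-2135, miR-21 and miR-361. This set depends on the reference. By raw Ct other assays were steadier, such as miR-186 with an SD of 0.016 cycles against 0.37 for miR-148b. MiR-148b had a Ct of 24.5, 24.4 and 25.1, which after the reference left levels of -4.93, -4.99 and -4.94 and an SD of 0.03. MiR-21, a growth-promoting miRNA of smooth muscle and plaque, had a Ct of 18.6, 18.6 and 19.3 and an SD of the level of 0.04. MiR-497, of the miR-15/16 family, was at 22.2, 22.1 and 22.8, also with 0.04. In miR-148b, miR-497 and miR-21 mouse 3 had the highest Ct, and so it had in the mean of the 5 controls. U6 went the other way, with a mean Ct of 16.2, 15.5 and 15.4.

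The widest spread was in assays of card B. MiR-763 had a Ct of 17.9, 24.6 and 37.7 (SD of the level 9.69), miR-762 had 18.2, 16.9 and 27.4 (5.32), and miR-721 had 26.9, 26.5 and 17.8 (5.51). MiR-291-5p had 34.6, 22.2 and 27.9 (6.16). MiR-762 ranked 25, 12 and 207 in the mice and miR-721 ranked 208, 205 and 15. MiR-292-5p completed the 5 widest, with an SD of 5.32.

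**Figure D3:**
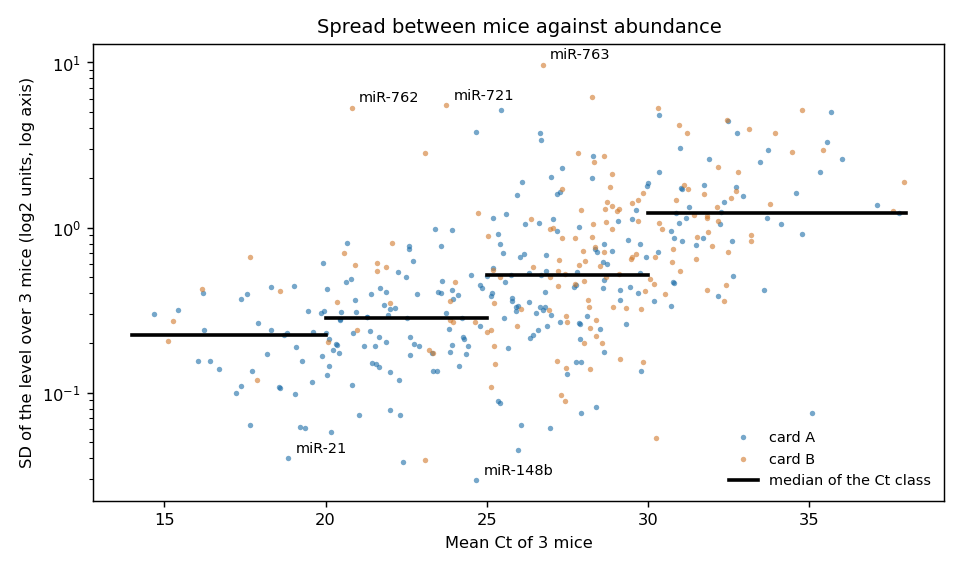
SD of the level over the 3 mice (log2 units, logarithmic axis) against mean Ct for each of the 407 assays, coloured by array card, with bars for the median SD of each Ct class. The medians rise from 0.22 under a Ct of 20 to 1.23 at 30 or more, and miR-763, miR-762 and miR-721 stand far above their class.

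Mouse 3 stood apart most often. A mouse was counted as apart in an assay when its level lay over 2 log2 units outside the range of the other mice. This held for mouse 1 in 16 assays, for mouse 2 in 27 and for mouse 3 in 71. For mouse 3, 45 of these were lower and 26 higher, and for mouse 2, 21 were higher and 6 lower. Among assays detected in all mice, the split was 28 lower and 19 higher for mouse 3, and 6 in each direction for mouse 2. Only 5 of the assays had a mean Ct under 25, all with mouse 3 apart. Ct correlated between mice 1 and 2 with a Pearson r of 0.96 across the 407 assays, against 0.89 between mice 1 and 3 and 0.91 between mice 2 and 3 (a description across assays, which are not replicates).

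The assays with a mouse farthest apart differed by mouse. In mouse 3 they were miR-343 (15.0, 15.6 and 40), miR-763, miR-326 (27.7, 28.4 and 40), miR-1935 (28.5, 29.5 and 40) and miR-721, all on card B. In mouse 2 they were miR-875-3p (40, 29.3 and 40), miR-18b (38.01, 29.63 and 39.41), miR-293, miR-216b and miR-1953, each higher in mouse 2. In mouse 1 they were miR-295 (40, 31.0 and 29.6), miR-292-5p, miR-761, miR-325 on card B and miR-1927. Except for miR-325, mouse 1 was the lower. Of all 1315 detected wells, 5 held an exact whole-number Ct, among them miR-343 in mouse 1 (15) and miR-292-5p in mouse 3 (28).

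Mouse 2 was the highest in most detected markers of several lists. Across the 407 assays, mouse 2 had the highest level in 23.3%, mouse 1 in 38.8% and mouse 3 in 37.8%. In the epithelial list mouse 2 was the highest in 6 of 7 assays, and in the leukocyte list in 4 of the 6 detected. It was also the highest in 4 of the 7 detected neural assays and in 2 of the 3 assays of the sensory cluster. Against the mean of the other mice, its level was 1.99 log2 units higher in miR-200a, 2.79 in miR-200b, 3.18 in miR-205, 1.42 in miR-122, 1.02 in miR-142-3p and 1.14 in miR-155. The median over all assays was -0.09.
Other members of these lists went the opposite way. In mouse 2, miR-223 lay 0.13, miR-146a 0.25 and miR-203 0.37 log2 units below the mean of the other mice. MiR-145 was 0.40 and miR-126-3p 0.53 below them. MiR-181a, enriched in developing lymphocytes, was at 20.9, 19.4 and 21.6, and miR-363, of the miR-106a-363 cluster, at 31.2, 27.6 and 32.2. The part of other cell types in these differences between mice was not tested, and the pattern was noticed after the values were seen.

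**Figure D4:**
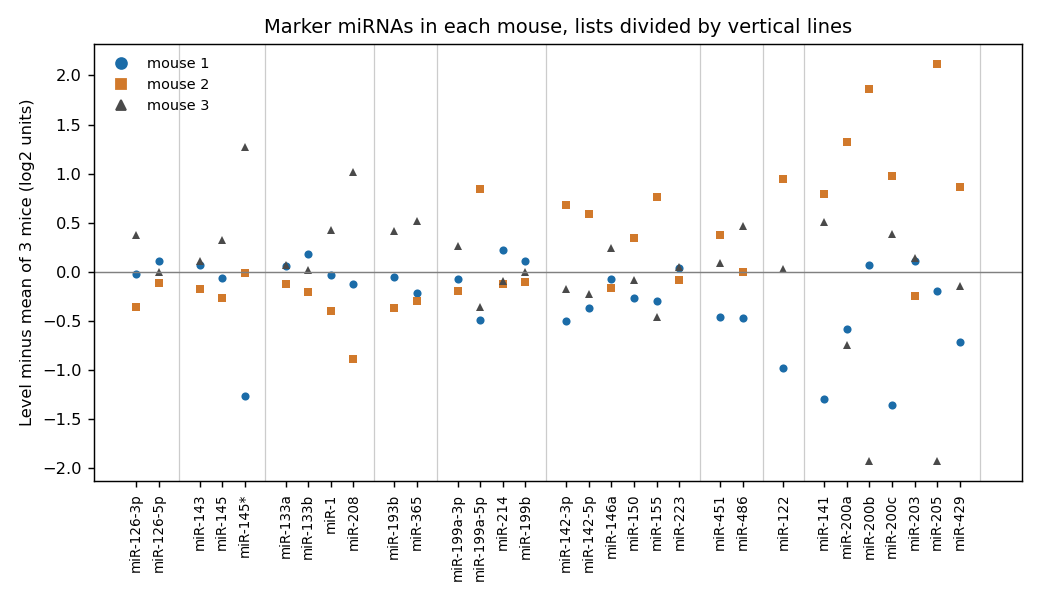
Level of each marker miRNA in each mouse minus its mean over the 3 mice (log2 units), for assays detected in all mice, with vertical lines between lists in the order endothelium, smooth muscle, striated muscle, adipocytes, mesenchyme, leukocytes, red cells, liver and epithelium. Mouse 2 is the highest in 6 of the 7 epithelial and 4 of the 6 leukocyte assays. It lies below the mean for miR-126-3p, miR-143 and miR-145. The neural and sensory lists are among those not drawn.

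The strands of a hairpin can be set side by side within each mouse without any reference, but each strand has its own assay. In most pairs with an asterisk the starred strand was on card B and the other on card A. Efficiencies were not measured, and assays of a single name on the 2 cards differed by a median of 2.43 cycles, as given below. A lower Ct is therefore not by itself a higher abundance. Of 55 pairs with and without an asterisk, 4 had neither strand detected. The strand without an asterisk had the lower Ct in all mice in 36 pairs, the starred strand in 10, and 5 had no common order. Where both strands were detected in all mice, the former held in 27 of 33 pairs and the starred strand led in 5, and the median difference was 5.57 cycles. Among 51 pairs named -5p and -3p, the 5p arm led in 18 and the 3p arm in 19, with 6 pairs in no common order and 8 with neither arm detected. In the 28 pairs with both arms detected in all mice, the arms differed by a median of 3.37 cycles in absolute size, and the directions balanced to a signed median of 0.10 cycles.

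Among the 61 pairs with both strands detected in all mice, the largest difference was in miR-145. Its starred strand came 22.9 ± 1.09 cycles (SD, n = 3) after the guide. MiR-191 had a Ct of 18.1, 18.3 and 18.5 and its starred strand 32.0, 32.5 and 32.6, a difference of 14.03 ± 0.14 cycles. In miR-21 the difference was 13.01 ± 0.90 cycles. In miR-331 the 3p arm was ahead, at 20.855, 21.002 and 22.025 against 33.5, 33.7 and 33.6 for the 5p arm, and in miR-125b the 5p arm led by 11.9 ± 0.36 cycles. These pairs were nearly one-sided in Ct.

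In other hairpins both strands were found at a similar Ct. The smallest difference was in miR-340, with 25.7, 26.1 and 26.1 for the 5p arm and 25.9, 25.8 and 26.0 for the 3p arm. Differences were 0.27 ± 0.17 cycles in miR-532, -0.32 ± 0.15 in miR-362, -0.35 ± 0.32 in miR-324 and 0.53 ± 1.84 in miR-369, as the 3p minus the 5p arm (SD, n = 3). The 2 arms of miR-362 were on different cards. In miR-340 and miR-369 the order was not the same in all mice.

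The starred strand led in hairpins where the name would place it second. MiR-193* was at 23.5, 23.9 and 24.3 and miR-193 at 29.0, 29.7 and 29.6, a difference of -5.57 ± 0.20 cycles. MiR-376b* led by 1.81 ± 0.07 cycles, and miR-872*, miR-34c* and miR-674* by 1.27, 0.98 and 0.65 cycles on average. MiR-146b*, miR-470* and miR-881* were detected in all mice, at mean differences that put them at least 7.57 cycles ahead of partners that were not detected. MiR-879* and miR-463* led partners that were missing in mouse 3. In most of these pairs the strands were on different cards.

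**Figure D5:**
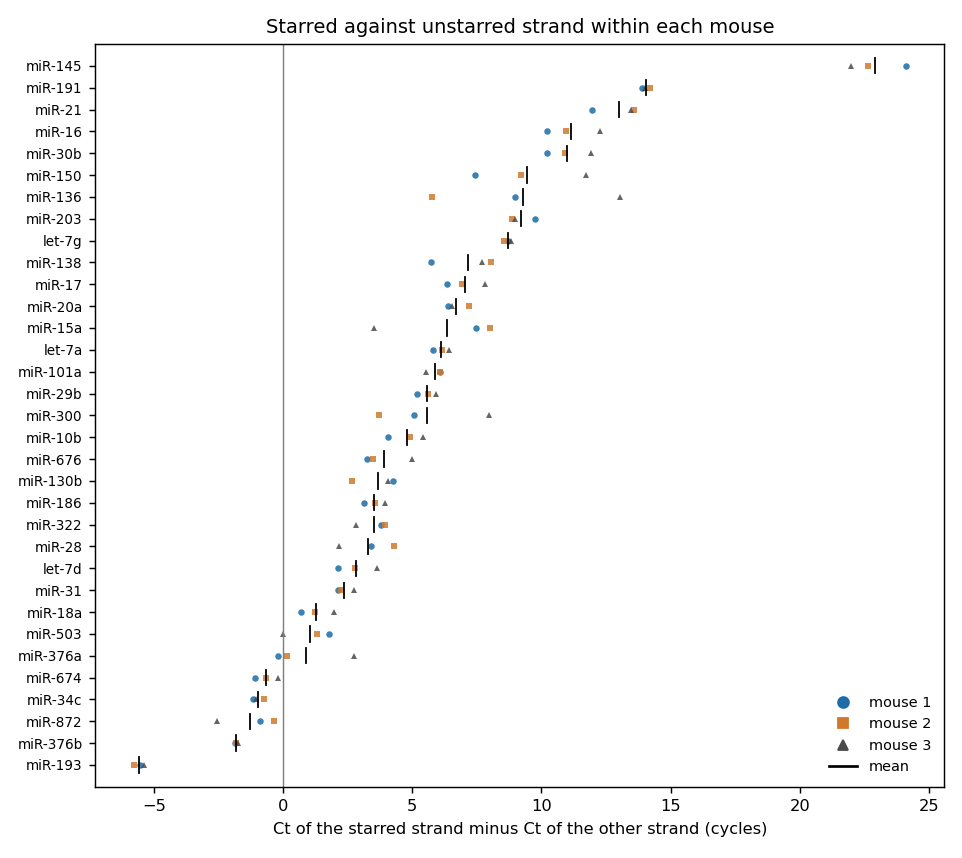
Ct of the starred strand minus that of the strand without an asterisk, in cycles, for the 33 pairs with both strands detected in all 3 mice (points, by mouse, and mean as a bar). Points to the right of 0 mean that the starred strand had the later Ct, which held in all mice for 27 pairs. MiR-193 lies furthest to the left at -5.57.

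Of 273 seeds among the matched assays, 15 were shared by 3 or more assays, and 11 of these families had the same leading member in every mouse. The let-7 seed was read by 10 assays, all detected, and let-7c took 30.2% of the family's signal on average. Let-7c and let-7b differ at 1 of 22 positions, and their mean Ct values were 17.4 and 18.6. Let-7a, let-7d, let-7i, let-7g and let-7f followed between 19.1 and 20.9. MiR-98 (27.9, 28.1 and 25.8) and miR-1961 (30.6, 31.7 and 32.2) were far behind. How far the assays tell such close sequences apart was not tested.

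The seed of miR-17, a family that promotes proliferation, was read by 6 assays that lay close together. They ran from miR-106a at a mean Ct of 19.9 to miR-20b at 23.6, and their leading member differed between mice. MiR-106a had a Ct of 20.1, 19.4 and 20.2 and miR-17 had 20.1, 19.5 and 20.2, and they differ at 1 of 23 positions. In both, mouse 2 had the lowest Ct. By level, mouse 2 was still the highest in miR-106a, whereas in miR-17 mouse 3 was, at -0.58, -0.064 and -0.005 log2 units in mice 1, 2 and 3.

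In other families the matched assays were unevenly abundant. Shares cover only assays matched to a sequence, and unmatched relatives were not counted. MiR-92a took 89.0% of the signal of the 5 assays matched to its seed. MiR-16 took 83.7% among 5 matched assays of the miR-15/16 seed, which leave out miR-195 and miR-497 at mean Ct values of 19.6 and 22.4. MiR-30c took 78.2% among 4 matched miR-30 assays, which leave out miR-30d and the more abundant miR-30b. The embryonic seed of miR-294, miR-295 and miR-302b was read by 5 assays, none of them detected in all mice. By Ct, the miR-99 seed was the most uneven among abundant families. MiR-99b was at 18.0, 18.1 and 18.5, whereas miR-100 was detected in mouse 3 alone at 36.0 and miR-99a in mouse 1 alone at 38.5. Whether the assays of miR-100 and miR-99a can read these miRNAs was not tested. Their late or missing signal therefore does not show that the miRNAs were absent. MiR-100 and miR-99a differ from each other at 1 and from miR-99b at 4 of 22 positions, as the sequences above show.

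Hairpins were joined when they lay within 10 kb of each other in the RefSeq annotation, which gave 38 clusters with 3 or more assays. A name with several genomic copies was counted at each of them. To leave passenger strands aside, the earliest strand of each hairpin name was taken. In the 32 clusters with at least 2 hairpin names detected in all mice, the range of these mean Ct values had a median of 3.79 cycles. It ran from 0.76 for miR-199a-3p and miR-214 to 17.8 from Mir363 to Mir106a, where the earliest name was miR-19b, which also has a copy elsewhere, and the latest was miR-18b. MiR-145 and miR-143 lay 1.34 cycles apart, miR-200a, miR-200b and miR-429 spanned 0.90, and miR-106b, miR-93 and miR-25, inside Mcm7, spanned 1.85. With all strands counted, the 26 clusters with at least 3 assays detected in all mice had a median range of 9.78 cycles.

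The imprinted region of chromosome 12 gave the most assays. From Mir379 to Mir410, 40 of 48 assays (83.3%) were detected in all mice, led by miR-382 at a mean Ct of 24.1, with a median of 29.3. From Mir770 to Mir136, 14 of 20 (70.0%) were detected, led by miR-127 at 22.01. Over all assays the share was 68.3%, so the second of these clusters was close to it. These miRNAs are made from the maternal chromosome and are best known from brain and embryo. By contrast, 1 of 15 assays of the Mir290a to Mir295 cluster was detected in all mice. That count leaves out miR-291-5p, which was detected in all mice but had no matching gene name. In the Mir302b to Mir367 cluster it was 1 of 8, and in the X-linked cluster from Mir743 to Mir470 it was 5 of 21. The Mir17 to Mir92-1 cluster had 9 of 11, from miR-19b at 17.9 to a mean Ct of 28.1.

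Names placed on both cards showed how far 2 assays of a name differed in Ct. There were 13 such names, of which 7 were detected by both assays in all mice, and the assays of a name differed by a median of 2.43 cycles. MiR-487b had a mean Ct of 29.7 on card A and 29.8 on card B. MiR-467a was at 26.8 on card A and 20.6 on card B, and miR-10b at 23.91 and 28.02. MiR-370 was detected on card A at a mean Ct of 26.8 and on card B in no mouse, miR-449b only on card B. In 3 names, the assay on a single card was detected in all mice and the other in none. Whether both assays of a name target the same sequence is not given in the sources used here. The control RNAs differed less, with mean card differences from -0.66 cycles for Y1 to 0.37 for U87. Differences in rank that rest on a few cycles between assays are of the size seen between 2 assays of a single name, and are uncertain. That size rests on 7 names whose shared target is not established, so it is not a calibration of Ct between assays.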

How the data were processed

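RNA of whole aortas (mirVana kit) was reverse transcribed, preamplified and measured on TaqMan microRNA array cards A and B, per the study's methods. The deposited values are the authors' raw Ct values, treated here as a score, with no reference subtracted. How baseline and threshold were set is not given in the sources used here. Assay numbers of 7 digits were taken as card A and others as card B. Undetected wells stayed at 40.

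The level was the mean Ct of U6, snoRNA135, snoRNA202, U87 and Y1, averaged over cards, minus the Ct. Calculations used pandas 2.3.3 and numpy 2.4.6, and the functions were tested on simulated data. Only the EC-DicerWT columns were used, without group comparison or test. Ct values carry no read depth, and precision is limited by 3 mice. Alternatives were other limits, efficiencies, references and pair filters, and leaving out each mouse.

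MiRNAs were named by rule: the 20 lowest mean Ct, defining list members, the 5 lowest and highest SD, the 5 largest and smallest strand differences among pairs detected in all mice, the 6 largest seed families, and the 5 assays in which each mouse lay farthest apart. Others were chosen after their values were seen. Members and lists were chosen with earlier results of these data known. Hairpin arms of older names were assigned from general knowledge. Base composition was not compared, because 57.4% of the assays had a sequence, under the 80% needed.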

Additional observations from a re-analysis of the deposited data

How the results depend on the processing

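Counts of detected assays, strand orders, list members and seed family members stayed within 1.5 times their value under every alternative run. For the share of the first 10 assays (57.1% on average), an efficiency of 1.8 per cycle gave 48.6%, and card A alone, chosen after seeing the data, gave 62.3%. The median SD of the level (0.45) was 0.84 with U6 alone and 0.58 with raw Ct. It ranged from 0.33 to 0.44 when each mouse was left out, lowest without mouse 3. Those SDs rest on 2 mice and are not directly comparable with an SD over 3. Added after seeing the data, card A alone gave 0.39 and a mean Ct under 25 gave 0.27, both over all 3 mice. With assays detected in all 3 mice only, mice 1, 2 and 3 stood apart in 6, 12 and 47 assays. The median range of mean Ct within clusters (9.78 cycles with all strands) was 3.79 with the earliest strand of each hairpin name only, an alternative also added after seeing the data. No paired analysis was possible because no groups were compared. Assays with a mean Ct of 30 or more had the widest spread, so order and detection there are the least certain.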
